A study of Saccharomyces cerevisiae with 24 samples.

Results

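The 31 strains described here are deletion mutants of the autophagy-related (ATG) genes of baker's yeast, together with those of VPS30 and SNX4, and they include the mitophagy genes ATG11, ATG32 and ATG33. They were chosen by gene function, though with earlier results of these data known, from 5526 strains with at least 1 barcode probe on the array. Each of the 31 had such a probe. The screen asked which deletions allow growth in the presence of excess Mdm33, an integral protein of the mitochondrial inner membrane whose overexpression stops growth. A pool of haploid deletion mutants in the BY4742 (MATα) background, from the Open Biosystems collection, received either pYX223-MDM33, a multicopy plasmid with MDM33 under the galactose-inducible GAL1/10 promoter, or pYX223 alone, the empty vector. Transformants of both kinds were collected from glucose plates and then grown on plates with 2% galactose for 4 days (inducing conditions) or with 2% glucose for 2 days (repressing conditions). The 4 groups were thus the MDM33 plasmid on galactose, the MDM33 plasmid on glucose, the empty vector on galactose and the empty vector on glucose, each measured in 2 experiments. Each deletion was read as 1 barcoded strain of the collection, and within an experiment the same transformants were spread on both sugars. Sugar and time on the plate differed together, and in experiment 1 dye and sugar cannot be told apart, since all galactose samples carried Cy3 and all glucose samples Cy5.

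In autophagy, cytoplasm and organelles are enclosed by a double membrane, the autophagosome, and delivered to the vacuole for breakdown. The Atg1 kinase complex starts the process, a phosphatidylinositol 3-kinase complex marks the membrane, Atg9 vesicles bring lipid, and a pair of ubiquitin-like conjugation systems attaches Atg8 to the growing membrane. Selective forms use receptors, such as Atg19 in the cytoplasm-to-vacuole targeting (Cvt) pathway and Atg32, which sits in the mitochondrial outer membrane and recruits mitochondria for mitophagy through Atg11. These genes are dispensable for growth in nutrient-rich medium and most are needed for survival of nitrogen starvation.

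Abundance was read from barcode signals in units of scaled fluorescence intensity. Each strain carries an uptag and a downtag, and a strain value here is the mean of both tags after averaging dyes. All channels were scaled to nearly the same total, 147379493 to 147666701 units, so a signal gives a strain's share of its pool rather than its cell number, and it can be compared between samples of 1 strain but not between strains. A strain counted as detected when at least 1 of its tags exceeded the limit of its channel, the 99th percentile of signals from probes of the other tag, which was not labelled with the dye of that channel. The channels of the MDM33 plasmid had limits of 786 to 3339 units on galactose and 176 to 837 units on glucose, and those of the empty vector 185 to 601 units on galactose and 263 to 732 units on glucose.

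Fewer autophagy mutants were detected on galactose with the MDM33 plasmid than in any other group. Both experiments detected 14 of the 31 strains (45.2%) with the MDM33 plasmid on galactose, against 23 (74.2%) with the empty vector on galactose. The same number, 23, was detected in both experiments on glucose with the MDM33 plasmid and on glucose with the empty vector. Over all 5526 strains the corresponding shares were 41.0% for the MDM33 plasmid on galactose, 66.2% for the empty vector on galactose, 68.3% for the MDM33 plasmid on glucose and 66.8% for the empty vector on glucose. These 5526 are the strains with a probe, and the paper states a smaller number for its pool. Shares of the pool itself may therefore be higher, and the gap to the mutants is not read as a difference. Of the 23 autophagy mutants detected in both experiments with the MDM33 plasmid on glucose, 14 (60.9%) were also detected in both on galactose and 4 (17.4%) in neither, which were Δatg23, Δatg32, Δatg34 and Δvps30. Among the 3773 strains of the pool detected in this way on glucose, 59.7% were detected in both experiments on galactose and 11.6% in neither. With the empty vector, 21 of 23 autophagy mutants (91.3%) kept a signal on galactose in both experiments and 1, Δatg34, had none, against 94.7% and 1.11% of 3690 strains of the pool. The higher limits on galactose with the MDM33 plasmid move together with the lower detection there, and their part in it was not tested.

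**Figure D1:**
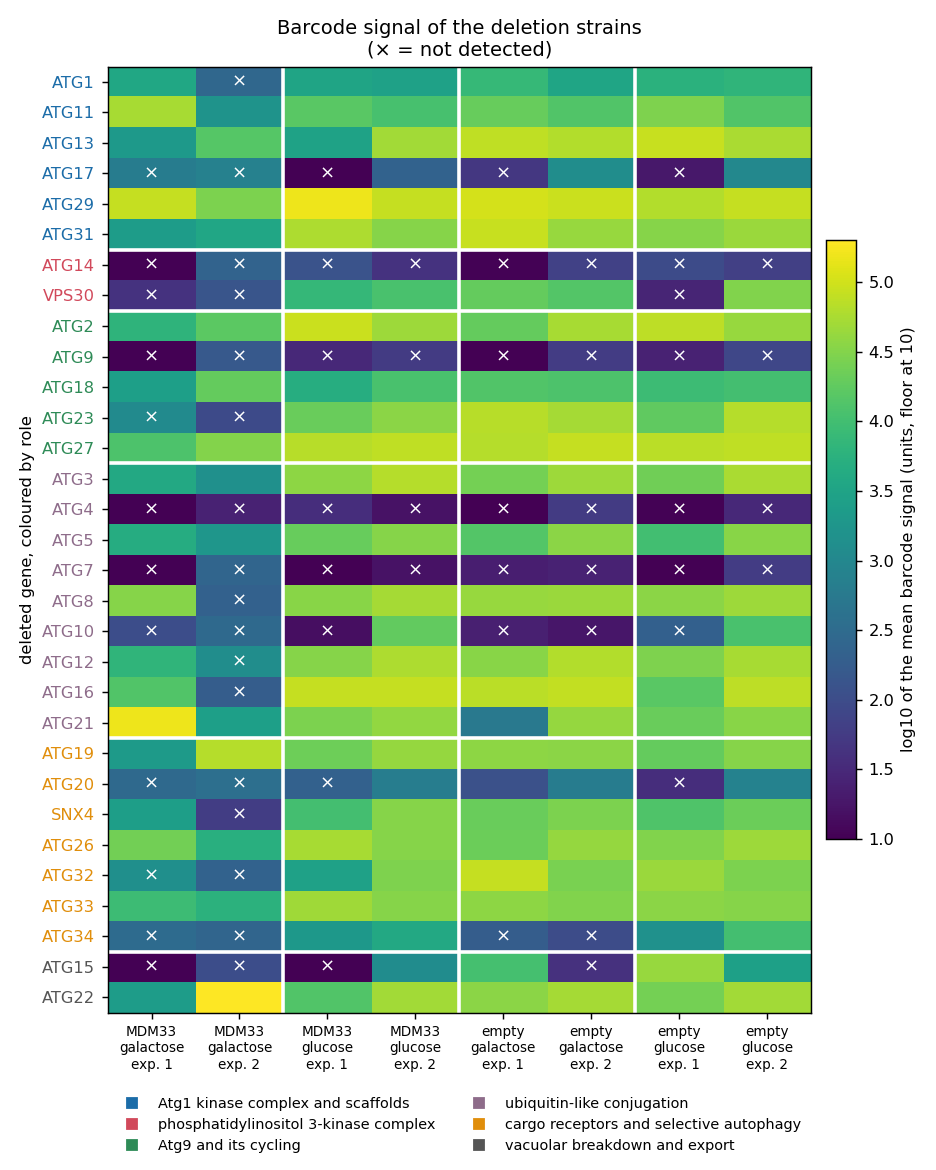
Barcode signal of the 31 autophagy mutants (rows, named by the deleted gene and coloured by role) in the 8 samples (columns, 4 groups with 2 experiments each), as the log10 of the mean of uptag and downtag in units, with a floor at 10 units. Crosses mark samples below the detection limit, of which Δatg4, Δatg7, Δatg9 and Δatg14 have only these, and 12 of 31 strains carry crosses in both MDM33 galactose columns.

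The screen gave no reading for 4 mutants, which were below the limit in all 8 samples and were not tested. They lacked Atg9, the transmembrane protein of the vesicles that seed the autophagosome, Atg14, the subunit that directs the kinase complex to autophagy, Atg7, the activating enzyme of both conjugation systems, and Atg4, the protease that processes Atg8. For Δatg9 (YDL149W) the signal was 0 and 158 units with the MDM33 plasmid on galactose against 0 and 57.7 units with the empty vector on galactose. It did not exceed 82.4 units on glucose. The Δatg4 strain had only 1 probe, a mutated form of its downtag. The other 27 strains passed the filter, a mean ratio to the limit above 1 over the 8 samples, which 4258 strains of the pool passed. Of these 27, Δatg17 and Δatg20 were faint in every sample, and Δatg10 was detected only in experiment 2 on glucose.

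On galactose, 6 of the 27 tested autophagy mutants were lower in the pool with the MDM33 plasmid, set against the empty vector, and none was higher (limma, Benjamini-Hochberg adjusted p under 0.05 over 4258 strains). These were Δatg23, Δatg32, Δsnx4, Δatg31, Δatg12 and Δatg3. In the whole pool 9.72% of the tested strains were lower and 0.258% were higher by the same test, so the 6 of 27 (22.2%) stand beside 414 of 4258. The log2 difference, computed on the signal plus 500 units, had a median of -1.90 over the 27 mutants and of -1.55 over all tested strains, and 23 of the 27 lay below 0 (85.2%) as did 77.9% of the pool. With an unadjusted p under 0.05 there were 12 autophagy mutants, all lower, and 34.2% of the pool. Where values of a mutant are said below not to overlap between the plasmids, this only describes them. The share of the pool without overlap is not given.

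These calls depended on how the spread was estimated and on the scaling. With the replicate number as a block, which pairs the samples of an experiment, 2 mutants remained below the threshold, Δatg23 and Δatg31, beside 211 lower strains in the pool. No autophagy mutant was called in a fit of the galactose groups alone or when any 1 of the 6 samples outside the MDM33 galactose group was left out. The pool counts of these fits are not given here, so the mutant counts have no share beside them. Leaving out experiment 1 of the MDM33 plasmid on galactose gave 13 lower mutants, among them all 6, beside 1544 lower strains in the pool. Leaving out its experiment 2 gave 5, of which 2 were among the 6 (Δatg23 and Δatg31), beside 686 in the pool. With 2 values in each group, the smallest two-sided p that exact permutation allows is 0.333. Scaling each channel to the 75th percentile of its labelled barcodes in place of the total raised the median of all strains by 2.28 on the log2 scale, to 0.74, and then 12 of the 27 mutants were below 0 and 15 above, while all 6 called mutants stayed below 0 but with no adjusted p under 0.05. Relative to the median of all strains, Δatg23 was at -4.41 with the scaling to totals and at -5.19 with the scaling to labelled barcodes, and Δatg32 was at -3.81 and at -4.29.

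**Figure D2:**
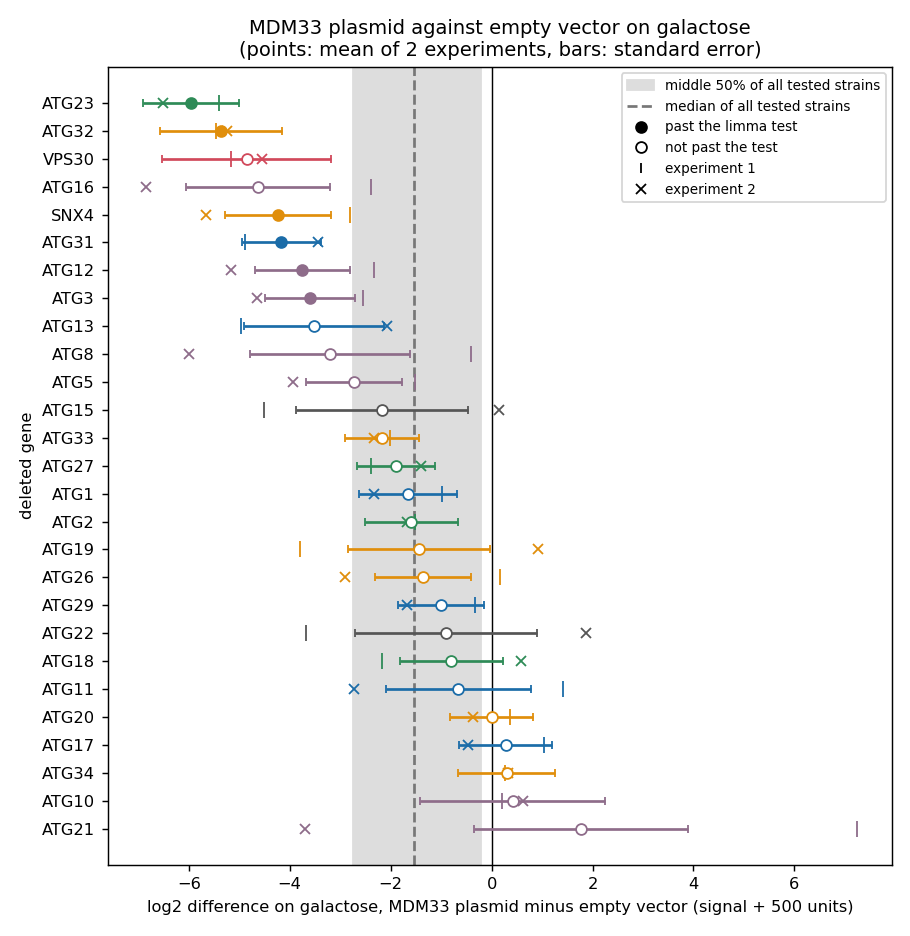
Log2 difference on galactose of the 27 tested autophagy mutants, MDM33 plasmid minus empty vector, on the signal plus 500 units. Circles with bars give the estimate over 2 experiments and its standard error, filled for the 6 strains past the limma test, ticks and crosses give experiments 1 and 2, and the band and dashed line give the middle 50% and the median (-1.55) of 4258 strains. Both experiments of the 6 filled strains lie below -2, while Δatg21 (YPL100W) is at 7.24 in experiment 1 and at -3.70 in experiment 2.

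Among the Atg1 kinase complex and its scaffolds, all 6 deletions were tested and 1 fell, Δatg31 (YDR022C), beside 9.72% of the tested pool. Atg31 forms the starvation scaffold together with Atg17 and Atg29. Its deletion strain had 2412 and 3524 units with the MDM33 plasmid on galactose, against 86199 and 42967 units with the empty vector on galactose. Both MDM33 values lay far below both empty vector values, and also below the 58827 and 33277 units with the MDM33 plasmid on glucose and the 33113 and 45837 units with the empty vector on glucose. The log2 difference on galactose was -4.16 ± 0.79 (SE, n = 2 experiments, limma adjusted p = 0.0409).

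The partners of Atg31 gave other values. The Δatg29 (YPL166W) strain kept 83459 and 27974 units with the MDM33 plasmid on galactose, against 104481 and 90953 units with the empty vector on galactose, a log2 difference of -1.003 ± 0.84 (SE) that did not pass the test (adjusted p = 0.454). It had signal from both tags in all 8 samples. Δatg17 stayed below the limit in both MDM33 galactose samples and in 3 of the other 6, with no value above 1264 units, so its difference of 0.28 ± 0.92 compares samples near background.

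Δatg1 (YGL180W) lacks the kinase itself. It had 3632 and 277 units with the MDM33 plasmid on galactose, the second below the limit, against 7618 and 3403 units with the empty vector on galactose. All of its signal came from the downtag, and its log2 difference was -1.65 ± 0.97 (SE, adjusted p = 0.276). Δatg13 (YPR185W), without the regulatory subunit of the kinase, had 2028 and 14507 units with the MDM33 plasmid on galactose and 78309 and 62793 units with the empty vector on galactose. These did not overlap and gave -3.52 ± 1.39, which missed the threshold (adjusted p = 0.122). With the MDM33 plasmid on glucose, however, this strain was also at only 3042 units in experiment 1, and at 51204 units in experiment 2, against 85515 and 56498 units with the empty vector on glucose.

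Δatg11 (YPR049C), without the scaffold of selective autophagy and mitophagy, differed by more than 10-fold between experiments. It had 54632 units in experiment 1 and 1622 units in experiment 2 with the MDM33 plasmid on galactose, against 20297 and 13574 units with the empty vector on galactose. The MDM33 values lay on either side of the empty vector values, and the log2 difference of -0.66 ± 1.44 (SE) did not pass the test (adjusted p = 0.804). On glucose the strain had 16141 and 11253 units with the MDM33 plasmid and 29128 and 13466 units with the empty vector.

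In the phosphatidylinositol 3-kinase complex only Δvps30 (YPL120W) could be tested. Vps30, the yeast Beclin 1, is a subunit both of the autophagy complex and of the complex for endosomal sorting. The strain had 42.4 and 135 units with the MDM33 plasmid on galactose, below the limit in both experiments, against 18942 and 14370 units with the empty vector on galactose. As a geometric mean of the 2 experiments, it was thus at least 8.62-fold lower with the MDM33 plasmid. Values below the limit were counted at the mean limit of the sample. Such lower bounds were computed with the scaling to totals only. The fitted log2 difference of -4.86 ± 1.68 (SE) missed the threshold (adjusted p = 0.0898). On glucose it had 7326 and 11446 units with the MDM33 plasmid and 27.9 and 30820 units with the empty vector, so that its signal was missing in 1 control sample too, and only its downtag ever gave signal. Within the MDM33 plasmid, its galactose signal was at least 4.79-fold below glucose as a geometric mean.

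Of the strains without Atg9 cycling factors, Δatg23 (YLR431C) had the lowest fitted difference of the 27 autophagy mutants. Atg23 is a peripheral membrane protein that, together with Atg27, moves Atg9 toward the site of autophagosome formation. Δatg23 had 1161 and 92.7 units with the MDM33 plasmid on galactose, both below the limit, against 69687 and 53432 units with the empty vector on galactose. On glucose it had 21107 and 35557 units with the MDM33 plasmid and 17929 and 65009 units with the empty vector, so that it was bright in every sample but those with induced MDM33. With the scaling to totals, it was at least 31.9-fold below the empty vector on galactose, as a geometric mean of the 2 experiments. The fitted log2 difference was -5.95 ± 0.95 (SE, n = 2 experiments, limma adjusted p = 0.0390). Within the MDM33 plasmid, its galactose signal was at least 14.3-fold below glucose as a geometric mean.

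Δatg27 (YJL178C), without the other factor for Atg9 traffic, had 12466 and 31375 units with the MDM33 plasmid on galactose and 67410 and 83852 units with the empty vector on galactose. These values did not overlap, with a log2 difference of -1.90 ± 0.78 (SE) and an adjusted p of 0.132. Δatg2 (YNL242W), which lacks the lipid transfer protein of the autophagosome, had 6299 and 16497 units with the MDM33 plasmid on galactose against 18872 and 53966 units with the empty vector on galactose (-1.60 ± 0.92, adjusted p = 0.266). Its values on glucose were 92020 and 47007 units with the MDM33 plasmid and 73738 and 43114 units with the empty vector. Δatg18 (YFR021W), without a phosphoinositide-binding partner of Atg2, had 2630 and 19033 units with the MDM33 plasmid on galactose, which enclosed the 13691 and 12531 units with the empty vector on galactose. Only its downtag gave signal, and its difference was -0.80 ± 1.02 (SE, adjusted p = 0.645).

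Among the ubiquitin-like conjugation genes 7 of 9 deletions were tested and 2 fell, Δatg12 and Δatg3, beside 9.72% of the tested pool. The median log2 difference of the 7 was -3.20, against -1.55 over all tested strains, and this gap was not tested. Atg12 is the ubiquitin-like protein that is joined to Atg5, and Atg3 is the enzyme that transfers Atg8 to phosphatidylethanolamine. Δatg12 (YBR217W) had 6448 and 1293 units with the MDM33 plasmid on galactose, the second below the limit, against 34618 and 63554 units with the empty vector on galactose, a difference of -3.75 ± 0.94 (SE, adjusted p = 0.0488). Δatg3 (YNR007C) had 3873 and 1423 units with the MDM33 plasmid on galactose against 25178 and 47622 units with the empty vector on galactose, a difference of -3.60 ± 0.88 (SE, adjusted p = 0.0474). In both strains each MDM33 galactose value was below every value of the other groups, which on glucose were 32815 and 59112 units with the MDM33 plasmid and 29353 and 54115 units with the empty vector for Δatg12. For Δatg3 they were 36469 and 65354 units with the MDM33 plasmid and 23540 and 56333 units with the empty vector on glucose.

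Δatg5 (YPL149W) and Δatg16 (YMR159C) lack the partners of Atg12. Δatg5 had 4663 and 1848 units with the MDM33 plasmid on galactose against 14329 and 35212 units with the empty vector on galactose (-2.72 ± 0.95, adjusted p = 0.0930), all from its uptag. Δatg16 had 13445 and 189 units with the MDM33 plasmid on galactose, the second below the limit, against 72731 and 79353 units with the empty vector on galactose (-4.63 ± 1.43, adjusted p = 0.0722). Neither strain's values overlapped between the plasmids, for which no share of the pool is given, and neither passed the test.

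Δatg8 (YBL078C), without the protein that coats the growing membrane, was split between the experiments. With the MDM33 plasmid on galactose it had 32532 units in experiment 1 and 216 units, below the limit, in experiment 2, against 43397 and 45079 units with the empty vector on galactose. Its first value was thus near that of the empty vector and its second far below it. On glucose it was even, at 34516 and 53280 units with the MDM33 plasmid and 35379 and 47083 units with the empty vector. Its galactose difference was -3.20 ± 1.59 (SE, adjusted p = 0.200).

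Δatg21 (YPL100W) went the other way in experiment 1. Atg21 is a phosphoinositide-binding protein that helps to place the Atg8 conjugation machinery. The strain had 157105 units in experiment 1 and 2686 units in experiment 2 with the MDM33 plasmid on galactose, against 546 and 41023 units with the empty vector on galactose. It was thus high with the MDM33 plasmid in 1 experiment and low in the other, and low with the empty vector in the first, and its difference of 1.77 ± 2.12 (SE) did not pass the test (adjusted p = 0.618). The values came from the uptag alone, and on glucose they were 28829 and 40713 units with the MDM33 plasmid and 21140 and 34842 units with the empty vector. Δatg10, without the conjugating enzyme for Atg12, was seen only in experiment 2 on glucose, at 18199 units with the MDM33 plasmid and 11606 units with the empty vector.

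All 7 deletions of cargo receptors and other genes of selective autophagy were tested. Of these, 2 fell on galactose, Δatg32 and Δsnx4, beside 9.72% of the tested pool. Δatg32 (YIL146C) lacks the mitophagy receptor. It had 1412 and 229 units with the MDM33 plasmid on galactose, below the limit in both experiments, against 83320 and 27261 units with the empty vector on galactose. With the scaling to totals, it was at least 24.9-fold below the empty vector on galactose, as a geometric mean of the 2 experiments. The fitted log2 difference was -5.35 ± 1.21 (SE, n = 2 experiments, limma adjusted p = 0.0437). On glucose, however, the strain was already low with the MDM33 plasmid in experiment 1, at 2848 units, and at 29022 units in experiment 2, against 45471 and 28706 units with the empty vector. Within the MDM33 plasmid, galactose against glucose was therefore -0.81 in experiment 1 and -5.34 in experiment 2. The lower bound of that difference was 4.75-fold as a geometric mean.

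Δatg33 (YLR356W), without an outer membrane protein needed for mitophagy in stationary phase, remained detectable throughout. It had 8846 and 5797 units with the MDM33 plasmid on galactose against 37397 and 30970 units with the empty vector on galactose. Its experiments lay close together and the plasmids did not overlap, with a log2 difference of -2.17 ± 0.73 (SE) and an adjusted p of 0.0854. On glucose it had 49141 and 33427 units with the MDM33 plasmid and 35098 and 33559 units with the empty vector. The 3 mitophagy mutants thus gave log2 differences of -5.35 for Δatg32, -2.17 for Δatg33 and -0.66 for Δatg11, of which only that of Δatg32 passed the test, and the differences among the strains were not tested.

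Snx4 is a sorting nexin that works with Atg20 in the Cvt pathway and in recycling from endosomes. Δsnx4 (YJL036W) had 2525 and 60.7 units with the MDM33 plasmid on galactose, the second below the limit, against 20631 and 27860 units with the empty vector on galactose. On glucose it had 10235 and 32991 units with the MDM33 plasmid and 13153 and 21941 units with the empty vector, so that both MDM33 galactose values were the lowest of the 8. The difference on galactose was -4.23 ± 1.05 (SE, adjusted p = 0.0477). Δatg20 did not exceed 814 units in any sample and gave a difference of 0.00 ± 0.83.

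Δatg19 (YOL082W) and Δatg34 (YOL083W) lack the paired receptors for vacuolar hydrolases. Δatg19 had 2240 units in experiment 1 and 66943 units in experiment 2 with the MDM33 plasmid on galactose, on either side of the 37584 and 35136 units with the empty vector on galactose (-1.44 ± 1.41, adjusted p = 0.526). Δatg34 was below the limit on galactose with either plasmid, at 320 and 254 units with the MDM33 plasmid and 183 and 101 units with the empty vector, and above it on glucose with either plasmid, at 1933 and 3945 units with the MDM33 plasmid and 1483 and 10331 units with the empty vector. As a geometric mean of the 2 experiments, its galactose signal was at least 1.44-fold below glucose with the MDM33 plasmid and at least 9.75-fold below with the empty vector. In experiment 1 with the MDM33 plasmid, the 1933 units on glucose lay under the mean limit of 2063 units on galactose. That experiment alone therefore bounds no decrease. Neither difference passed the limma test (adjusted p = 0.163 with the MDM33 plasmid and 0.9998 with the empty vector). Δatg26 (YLR189C), without a sterol glucosyltransferase that serves peroxisome breakdown in Pichia pastoris, had 24372 and 5203 units with the MDM33 plasmid on galactose against 21573 and 42142 units with the empty vector on galactose (-1.37 ± 0.95, adjusted p = 0.359).

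The deletions of the vacuolar end of the pathway gave no call. Δatg22 (YCL038C), without an exporter of amino acids from the vacuole, had 2340 units in experiment 1 and 192991 units in experiment 2 with the MDM33 plasmid on galactose, against 35727 and 52279 units with the empty vector on galactose. The 2 experiments again enclosed the empty vector values (-0.90 ± 1.80, adjusted p = 0.784). Δatg15, without the lipase that opens autophagic bodies, had 0 and 103 units with the MDM33 plasmid on galactose and 10881 and 41.6 units with the empty vector on galactose. It reached the limit in only 1 experiment on glucose with the MDM33 plasmid.

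With every channel scaled to the same total, the median autophagy mutant had less signal on galactose than on glucose with the MDM33 plasmid, as did the pool, and about as much with the empty vector. With the MDM33 plasmid the galactose signal of the 23 autophagy mutants detected on glucose in both experiments had a median of 19.7% of the glucose signal in experiment 1 and 9.66% in experiment 2, against 25.8% and 13.7% over 3773 strains of the pool. Galactose values below the limit entered all these shares as measured. The 9.66% is the share of Δatg1, whose 277 units were below the limit, so it is no measured remainder. With the empty vector the medians over its 23 detected autophagy mutants were 123% and 101%, against 84.7% and 99.9% over 3690 strains. With the MDM33 plasmid 3 mutants exceeded 100% in experiment 1 (Δatg1, Δatg11 and Δatg21) and 3 others in experiment 2 (Δatg18, Δatg19 and Δatg22), and none did so in both. In the pool 17.3% of the strains exceeded 100% in experiment 1 and 19.2% in experiment 2, so 3 of 23 is no more than the pool gave. The lowest shares were 0.579% for Δvps30 in experiment 1 and 0.184% for Δsnx4 in experiment 2. Both came from galactose values below the limit, 42.4 units under a mean limit of 2063 and 60.7 units under 1774. They therefore do not measure how much signal was left.

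In the limma fit of galactose against glucose with the MDM33 plasmid, no autophagy mutant passed the test and neither did any strain of the pool (0% of 4258, smallest adjusted p 0.0595). The median log2 difference was -2.06 over the 27 mutants and -1.88 over all strains, and 26 of 27 mutants lay below 0. These signs held only for the scaling to totals. Scaled to the 75th percentile of the labelled barcodes, 13 mutants were below 0 and 14 above, with a median of 0.05 over the mutants and 0.46 over all strains. Scaled to the 75th percentile of all probes, 15 were below 0 and 12 above, with medians of -0.29 over the mutants and -0.31 over all strains. Without experiment 1 of the MDM33 plasmid on galactose 12 mutants were called lower, beside 1572 of 4258 strains in the pool, and without its experiment 2 there were 5, beside 546. At an unadjusted p under 0.05 there were 12 mutants and 1559 strains. The interaction, which asks whether the sugar difference depended on the plasmid, gave 0 calls among the mutants and 0% in the pool (smallest adjusted p 0.237), with 8 mutants and 771 strains at an unadjusted p under 0.05. Its median over the mutants was -1.71 with the scaling to totals and 0.86 with that to labelled barcodes. Δatg23 had the smallest unadjusted p among the mutants there (-5.64 ± 1.34), at -5.63 in experiment 1 and -5.65 in experiment 2.

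Where MDM33 was not induced, no autophagy mutant passed the test. With the empty vector, galactose against glucose gave no call among the mutants or in the pool (0% of 4258, limma), with 1 mutant, Δatg34, and 80 strains at an unadjusted p under 0.05, and the median was 0.11 over the 27 mutants and -0.10 over all strains. On glucose, the MDM33 plasmid against the empty vector gave no call either (0%), with 0 mutants and 44 strains at an unadjusted p under 0.05, and medians of 0.12 over the mutants and 0.02 over all strains. The range over the mutants was wide, however, from -3.70 for Δatg15 to 1.29 for Δatg16 on glucose and from -2.85 for Δatg34 to 2.06 for Δvps30 with the empty vector. A p that misses the threshold in 2 experiments per group does not show that these strains were equal.

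**Figure D3:**
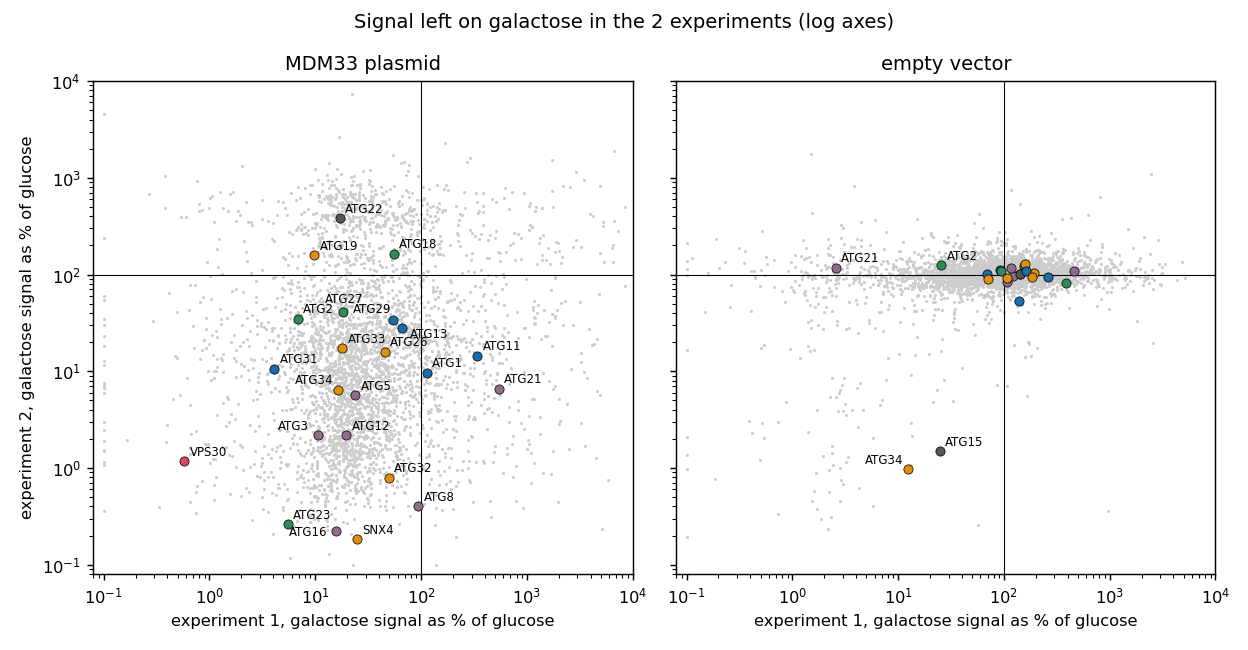
Galactose signal as a percent of the glucose signal in experiment 1 (horizontal) and experiment 2 (vertical), both on log axes, for the MDM33 plasmid (left) and the empty vector (right), with values under 0.1% drawn at 0.1%. Grey points are all strains and coloured points the 23 autophagy mutants detected on glucose in both experiments with that plasmid, and the lines mark 100%. With the empty vector most mutants sit near 100% in experiment 2 (median 101%), and with the MDM33 plasmid they spread over both experiments. Galactose signals below the detection limit are included as measured.

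The experiments disagreed most where MDM33 was induced. The median absolute difference between experiments, on the log2 scale of signal plus 500 units, was 1.49 over the 27 mutants with the MDM33 plasmid on galactose, against 0.54 with the empty vector on galactose, and it was 0.81 with the MDM33 plasmid and 0.77 with the empty vector on glucose. Over all tested strains the galactose medians were 1.71 with the MDM33 plasmid and 0.76 with the empty vector, and the glucose medians were 0.65 with the MDM33 plasmid and 0.66 with the empty vector. On the same scale, which narrows the gaps of faint strains, the experiments lay more than 10-fold apart in 6 of the 27 mutants with the MDM33 plasmid on galactose, beside 21.8% of the pool. These were Δatg8, Δatg11, Δatg16 and Δatg21, which were higher in experiment 1, and Δatg19 and Δatg22, which were higher in experiment 2. The p-values and standard errors of the main fit rest on the spread between the 2 experiments per group only, pooled over the 4 groups. For each strain eBayes also draws that spread toward the spread of all tested strains. They therefore do not measure the wider spread of the MDM33 galactose group by itself.

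Uptag and downtag of a strain were labelled in separate reactions and read by probes of their own, and so give 2 readings of the same DNA. In 16 mutants both tags exceeded the limit in both experiments with the empty vector on galactose, and their galactose differences between plasmids differed by a median of 1.45 on the log2 scale between the tags. Of the 6 called mutants, Δatg23 was at -4.99 from its uptag and -6.99 from its downtag, and Δatg3 at -2.98 from its uptag and -5.53 from its downtag. Δatg31 and Δsnx4 were both at -3.20 from their uptags, and at -4.71 and -4.70 from their downtags. Δatg12 was at -4.14 from its uptag and -3.44 from its downtag, so that all of these tags lay below -2. Δatg32 had the widest gap of the 16, with -5.82 from its uptag and -2.20 from its downtag. In the separate fit of the uptags no mutant passed the test, and in that of the downtags 5 did, of which 4 were among the 6 called on the mean of both tags (Δatg3, Δatg12, Δatg23 and Δatg31) and the other was Δatg33. Pool counts of these separate fits are not given.

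**Figure D4:**
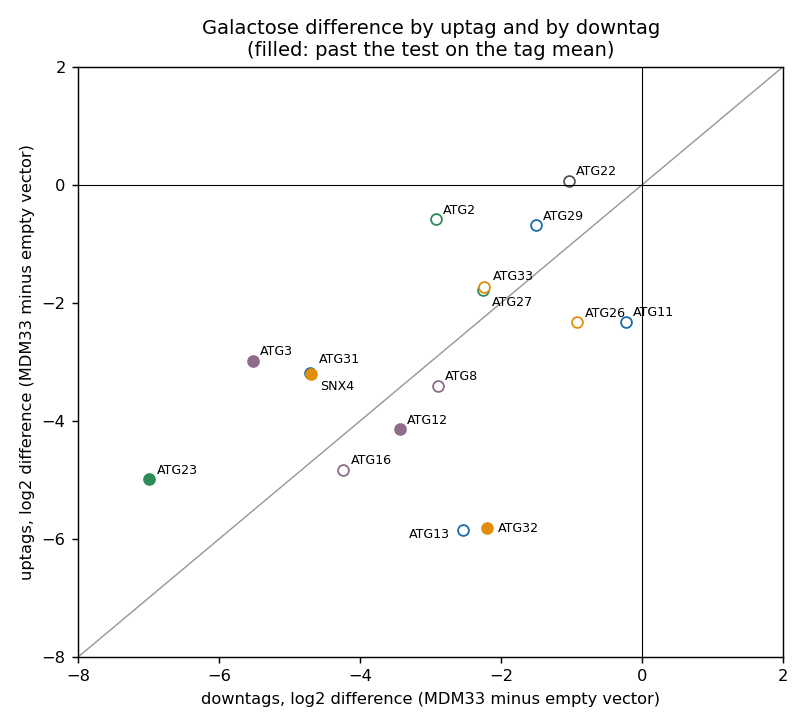
Log2 difference on galactose, MDM33 plasmid minus empty vector, from the downtags (horizontal) and from the uptags (vertical) of the 16 autophagy mutants with both tags above the limit in both empty vector galactose samples. Filled circles passed the limma test on the mean of both tags and the line marks equal values. The tags of Δatg32, whose downtag was faint also with the empty vector, lie 3.61 apart.

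Strains lacking genes that act beside these pathways were taken from 2 further lists. Of 15 genes for vacuole fusion, vacuolar proteolysis and the kinase complexes, 10 were tested on galactose between plasmids and 2 were lower, beside 9.72% of the pool, with a median of -2.14 against -1.55 over all tested strains. The signs of these medians are those of the scaling to totals. Δpep4, without the vacuolar proteinase A, had 194 and 366 units with the MDM33 plasmid on galactose against 27427 and 33808 units with the empty vector on galactose (-5.32 ± 0.90, adjusted p = 0.0390). Δtrs85, without a subunit of the TRAPPIII complex that serves autophagy, had 2057 and 1283 units with the MDM33 plasmid on galactose against 20264 and 13152 units with the empty vector on galactose (-2.98 ± 0.75, adjusted p = 0.0488). Of 12 genes named later as receptors or known as regulators of mitophagy, 11 were tested and 2 were lower, beside the same 9.72% of the pool, with a median of -0.95 that lay above the -1.55 of all strains. These were Δatg36, without the receptor for peroxisomes, at 1233 and 595 units with the MDM33 plasmid on galactose against 36227 and 30227 units with the empty vector on galactose (-4.61 ± 0.74, adjusted p = 0.0390), and Δslt2, without the kinase of the cell wall integrity pathway, at 124 and 328 units with the MDM33 plasmid against 7023 and 11649 units with the empty vector (-3.73 ± 0.79, adjusted p = 0.0409). None of the 21 tested genes of these lists was higher.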

How the data were processed

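The deposited values were fluorescence intensities of barcode probes, which the authors had background-corrected in ArrayVision and scaled to 1 total intensity per channel. Sample labels gave plasmid, sugar, experiment, dye and tag of the 24 dye channels. The table of scaled values was used, without 26 of 14767 annotated probes, and the 24 unscaled columns were left out. The 31 strains had 83 probes, 60 for original and 23 for mutated barcodes, and per tag the probe with the higher mean was taken. All 31 matched a RefSeq locus tag (assembly R64, used for names only). Dyes were averaged where both were present (experiment 2), then tags. log2(signal + 500) of 4258 strains was fitted with limma (lmFit, eBayes, 4 residual degrees of freedom, Benjamini-Hochberg at 0.05) over 4 groups of 2 experiments, without further background correction or scaling. The procedure was tested on simulated data.

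The members, lists and tests were chosen with earlier results of these data known. Values in every experiment are given for members past the test, for those detected on galactose with the MDM33 plasmid in both experiments, and for Δatg1, Δatg8, Δatg9, Δatg11, Δatg32, Δatg33, Δvps30 and Δsnx4; other values were chosen after they were seen. The series' design text gives the replicate number as a set of transformations plated together. The differences between sets 1 and 2 correlated at 0.0616 to 0.318 across strains over the 6 pairs of groups. Alternatives covered offset, scaling, filter, tags, probes, dye, array weights, the replicate block, the groups fitted and each replicate left out. Computations used Python 3.11.15 with pandas 2.3.3 and R 4.3.3 with limma 3.58.1.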

Additional observations from a re-analysis of the deposited data

Results flagged for a closer look

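Some autophagy mutants also gave signal on a probe that the strain values do not use, since a tag can have probes for its original and for a mutated barcode and the brighter was taken. The unused probes with a mean above the limit over the 12 channels that label their tag were the following. Unused uptag probes were 180-fold above the limit for the original barcode of ATG16, at 88.9% of the mean signal of the probe used, 86.4-fold for another mutated barcode of ATG16, 8.73-fold for the original barcode of ATG22, 5.74-fold for that of ATG34 and 22.7-fold for a mutated barcode of ATG32. Unused downtag probes were 72.4-fold above it for the original barcode of ATG3, 49.6-fold for another mutated barcode of ATG3, 27.4-fold for a mutated barcode of ATG31 and 22.9-fold for that of ATG23. With the mean of original and mutated probes 5 autophagy mutants were called lower on galactose, all of them among the 6, and Δatg3 was no longer called. With original probes alone there were also 5, again without Δatg3. Groups of 2 experiments were too small to look for outlying samples.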

How the results depend on the processing

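On galactose between plasmids, 6 autophagy mutants were called lower. The count was 0 with array weights (0.247 for both MDM33 galactose samples and 1.33 to 1.77 for the others), with the galactose groups alone, with either scaling to a 75th percentile and with uptags alone, and it was 1 with an offset of 100 and 2 with the replicate block. Over the fits that left out 1 replicate it ranged from 0 to 13. For galactose against glucose with the MDM33 plasmid, where none was called, there were 4 with downtags alone, 5 without the filter, 6 with an offset of 2000 and 0 to 12 with 1 replicate left out. The interaction gave 1 with downtags alone and 0 to 7 with 1 replicate left out, and 7 without MDM33 galactose replicate 1. The replicate block changed no other count among the mutants, which were 0. For these 2 comparisons pool counts are given only for some of the left-out replicates. Nor are they given for the galactose calls with array weights, the galactose groups alone or either scaling to a 75th percentile. The same holds for uptags alone, downtags alone and other choices of probe. Those mutant counts therefore cannot be set beside a share of the pool. Detection on galactose with the MDM33 plasmid in both experiments was 14 strains, and 4 when both tags had to exceed the limit. The shares were 45.2% and 12.9% of the 31 mutants, beside 41.0% and 14.5% of all 5526 strains. The 6 called mutants kept their sign under all 22 alternatives, with log2 differences from -6.99 to -0.85. Array weights, the block, the galactose groups alone, the filters and left-out glucose samples could not move these differences. Those settings change only the spread or the set of strains, so a kept sign says nothing there. In the pool, the lower calls on galactose between plasmids were 414, and 73 with an offset of 100, 651 with an offset of 2000, 689 without the filter, 211 with the block and 0 to 1544 with 1 replicate left out. Scaling by the upper quartile (75th percentile) of all probes shifted the median of all strains by 0.77 on galactose between plasmids, and 19 of 27 mutants stayed below 0. With 2 experiments per group, values near the limit and 1 transformation per plasmid and experiment, small differences were not detectable.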
